A study of Mus musculus with 12 samples.

Results

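Expression of 44 genes that copy DNA or supply its building blocks was followed in mouse macrophages that the growth factor M-CSF had differentiated over 7 days from bone marrow. The genes were picked by symbol out of 16145 genes listed in at least 1 of 12 RNA-seq libraries, and all 44 were listed in all 12. The libraries form 4 groups of 3. Wild-type (WT) cells received 120 µM 4-octyl itaconate (4-OI, a cell-permeable ester of the metabolite itaconate) for 15 h, or 15 µM hemin (the oxidised form of heme) for 12 h. Cells of Irg1KO mice, with a knockout of Irg1 (now Acod1, the enzyme that makes itaconate), received vehicle for 12 h, as did the WT cells that serve as control. The comparison of 4-OI with vehicle therefore also differs in hours. The labels used here give neither the deleted part of Irg1, the strain, sex and age of the mice nor the composition of the vehicle, and they do not say whether replicates are separate animals or cultures, so each p-value measures the spread between these libraries only.

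Before a cell enters S phase, the origin recognition complex, Cdc6 and Cdt1 load the MCM2-7 ring onto DNA as an inactive helicase. Cyclin E kinase and E2F transcription factors then drive entry into S phase, Cdc45 and GINS join the ring to form the active helicase, and a sliding clamp holds polymerases on the template while ribonucleotide reductase, thymidylate synthase and thymidine kinase supply deoxynucleotides. Macrophages grown in M-CSF are a dividing population for several days, and transcripts of these genes are known to be most abundant in cells near the G1/S boundary and in S phase. In bulk RNA, fewer cells in S phase and less RNA per cell cannot be told apart.

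Library totals ranged from 9405112 to 22390882 expected counts, the lowest expected count of any of the 44 genes in any library was 48, and replicates correlated at r = 0.9912 or higher across genes. CPM are read counts scaled to library size. The CPM of individual genes are TMM-normalised, and the marker sums of this paragraph are not. All 8 macrophage markers on a fixed list were detected. Their summed levels were 23900 to 25420 CPM with 4-OI, 23580 to 25910 with hemin, 22550 to 25420 in Irg1KO cells and 23720 to 24350 in WT vehicle. A sum can hide opposite changes. With 4-OI 2 of the 8 rose and 2 fell at an edgeR adjusted p under 0.05 (25.0% each, log2 fold changes of -0.67 to 0.25). Of all genes tested, 25.4% rose and 25.0% fell. Markers of fibroblasts and stroma (10 of 10 detected) summed to 2807 to 3134 CPM with 4-OI, 2348 to 2940 with hemin, 13230 to 14960 in Irg1KO cells and 2556 to 3094 in WT vehicle, so the Irg1KO libraries stand apart in this list. Of the 8 stromal markers tested, 3 rose (37.5%) and 1 fell (12.5%) with 4-OI. Neutrophil markers summed to at most 5.67 CPM in any library, and markers of erythroid, T, NK and mast cells to at most 0.294. The 4 endothelial markers, all detected, summed to 8.19 to 9.22 CPM with 4-OI, 16.8 to 18.6 with hemin, 30.8 to 33.9 in Irg1KO cells and 37.1 to 41.2 in WT vehicle. Of the 4, Kdr (-2.52) and Cdh5 (-1.45) fell with 4-OI, and 2 were not called, the highest of them at 0.126. B cell markers, 3 of 4 detected, summed to 0.51 to 0.709 CPM with 4-OI, 1.16 to 1.4 with hemin, 1.118 to 1.25 in Irg1KO cells and 1.13 to 1.92 in WT vehicle, and Cd79b (-1.27) fell with 4-OI. The part of these markers in the values of the 44 genes was not tested. The targeted gene Acod1 was still detected in Irg1KO cells, at 7.25, 4.2 and 8.76 FPKM (the authors' level per transcript length and library size), against 11.3, 12.3 and 10.3 FPKM in WT vehicle. Its log2 fold change on counts was -0.48 (edgeR adjusted p = 0.194), and since the deleted part is not given, these values do not check the knockout label. The transcript length the files give for Acod1 was 3132 to 3382 bases in Irg1KO libraries and 2635 to 2653 bases in WT vehicle libraries.

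With 4-OI, 43 of the 44 genes fell and none rose at an edgeR adjusted p under 0.05, where 25.0% of all 12148 genes tested fell and 25.4% rose. The median log2 fold change of the 44 was -0.71, with a range of -1.53 to -0.09, against a median of -0.0031 over all genes tested. Their summed share of all expected counts was 0.281%, 0.263% and 0.264% in the 4-OI libraries, against 0.470%, 0.457% and 0.469% in the WT vehicle libraries. For the same 43 genes all 3 libraries with 4-OI lay below all 3 with vehicle, as was the case for 28.3% of all genes. Pcna, which encodes the sliding clamp, was the exception.

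The decrease was smaller with hemin and in the knockout. With hemin 17 of the 44 fell and none rose, where 7.74% of all genes fell and 9.48% rose, and the median of the 44 was -0.15 (-0.41 to 0.056) against -0.0060 over all genes. In Irg1KO cells 25 of the 44 were lower and none higher, where 16.3% of all genes were lower and 23.5% higher, and the median was -0.17 (-0.45 to -0.028) against -0.0003 over all genes. No gene was higher at an unadjusted p under 0.05, by DESeq2 or by limma on FPKM in any of these 3 comparisons, while at an unadjusted p under 0.05 43, 25 and 30 were lower with 4-OI, with hemin and in Irg1KO cells. Libraries did not overlap, with all 3 below vehicle, for 23 genes with hemin (14.9% of all genes) and for 32 genes in Irg1KO cells (22.4% of all genes). Summed shares of expected counts were 0.417%, 0.401% and 0.387% with hemin and 0.398%, 0.394% and 0.393% in Irg1KO cells, all below the lowest vehicle library. The 3 comparisons share the same 3 vehicle libraries, so a low call in several of them is not independent evidence. The part of stromal cells in the Irg1KO values of the 44 was not tested. A fit chosen after seeing the data left out the 1400 genes 2-fold or more above vehicle in Irg1KO cells. It called 20 of the 44 lower, and 1423 of all 10763 genes tested. That fit leaves the counts of the 44 as they were, so it cannot show what stromal cells add to them.

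**Figure D1:**
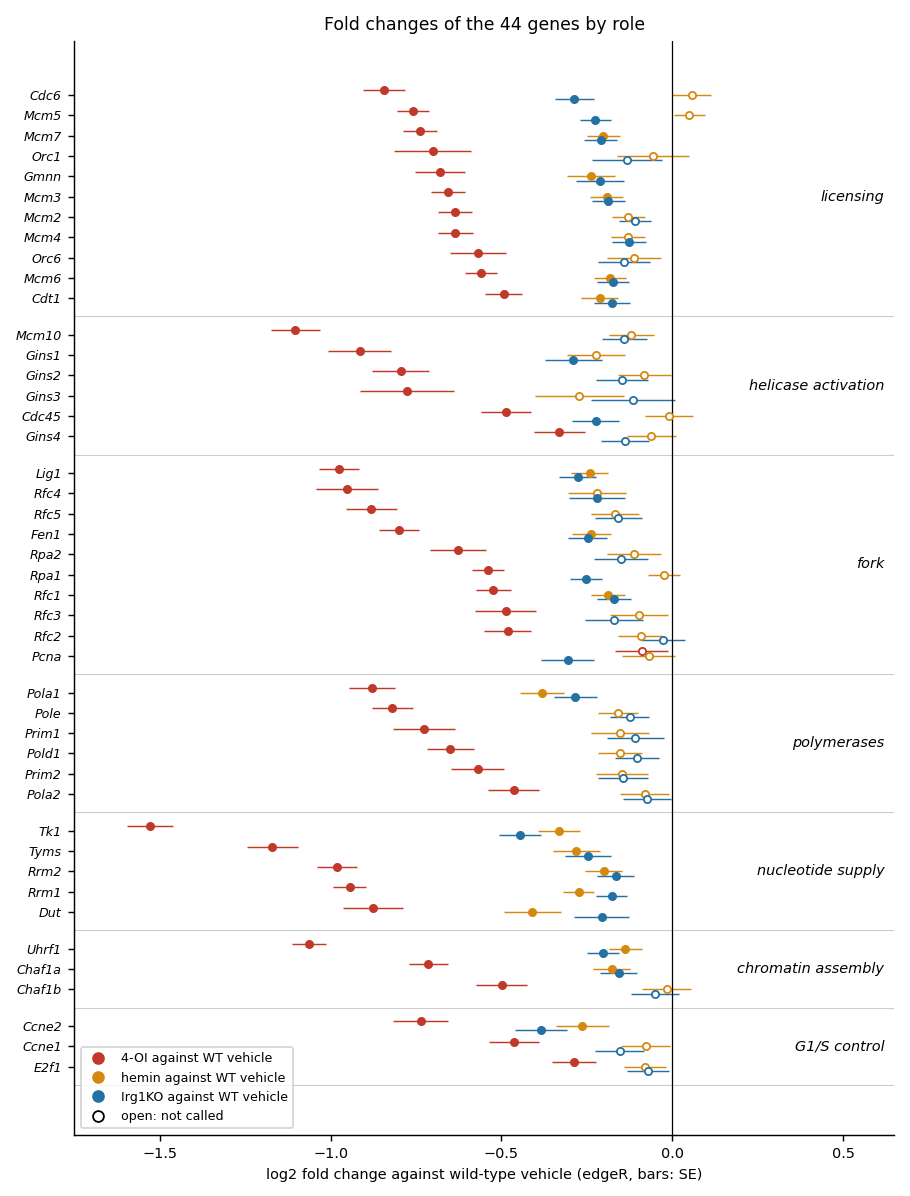
Log2 fold change of each of the 44 genes (rows, grouped by role) against wild-type vehicle, for 4-OI (red), hemin (orange) and Irg1KO (blue), with bars for the standard error; filled points passed an adjusted p of 0.05. The red points run from -1.53 for Tk1 to -0.09 for Pcna, the only open red point, and no filled point of any colour lies right of 0.

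The stretches of promoter shown here introduce genes from both ends of the 4-OI range and of both kinds, with and without the letters that E2F factors are known to bind. RefSeq promoter windows, running from 250 bases before to 50 bases after an annotated start in build GRCm38.p6, matched 35 of the 44 genes by symbol. Gmnn, Mcm4, Gins1, Gins2, Gins4, Rfc2, Prim2, Pole and Ccne2 had no window. The letters TTTCCCGC, TTTCGCGC, TTTGCCGC or TTTGGCGC, read on both strands, stood in at least 1 window of 13 of the 35 genes (37.1%), and in those of 459 of 9697 tested genes with a window (4.7%). Of all 32851 windows of this length, 2.3% held them. The 13 genes were Orc1, Cdc6, Cdt1, Mcm3, Mcm5, Mcm6, Mcm7, Gins3, Rfc3, Lig1, Pola1, Pold1 and Uhrf1. The last 200 bases before the start, 5′ to 3′ in the direction of the gene, are given for Mcm6 at chr1:128359706-128359905 (minus strand), Mcm5 at chr8:75109309-75109508 (plus strand), Orc1 at chr4:108579254-108579453 (plus strand), Uhrf1 at chr17:56304113-56304312 (plus strand), Tk1 at chr11:117826015-117826214 (minus strand) and Pcna at chr2:132253181-132253380 (minus strand), with the searched letters in capitals.
Mcm6: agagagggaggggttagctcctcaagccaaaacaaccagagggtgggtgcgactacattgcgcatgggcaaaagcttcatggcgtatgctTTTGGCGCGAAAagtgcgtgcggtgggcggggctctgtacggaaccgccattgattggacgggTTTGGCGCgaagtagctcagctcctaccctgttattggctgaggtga
Mcm5: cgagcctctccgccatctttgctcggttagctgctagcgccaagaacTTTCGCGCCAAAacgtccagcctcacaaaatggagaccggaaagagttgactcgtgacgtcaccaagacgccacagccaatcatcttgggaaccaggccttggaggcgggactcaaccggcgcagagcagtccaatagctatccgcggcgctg
Orc1: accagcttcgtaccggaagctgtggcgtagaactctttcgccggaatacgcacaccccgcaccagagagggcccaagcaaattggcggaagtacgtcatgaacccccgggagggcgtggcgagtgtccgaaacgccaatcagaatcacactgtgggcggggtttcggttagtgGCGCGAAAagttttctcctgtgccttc
Uhrf1: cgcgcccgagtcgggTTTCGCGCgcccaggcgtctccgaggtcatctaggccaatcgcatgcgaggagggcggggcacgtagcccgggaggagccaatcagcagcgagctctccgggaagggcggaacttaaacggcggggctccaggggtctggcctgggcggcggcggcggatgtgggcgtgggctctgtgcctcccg
Tk1: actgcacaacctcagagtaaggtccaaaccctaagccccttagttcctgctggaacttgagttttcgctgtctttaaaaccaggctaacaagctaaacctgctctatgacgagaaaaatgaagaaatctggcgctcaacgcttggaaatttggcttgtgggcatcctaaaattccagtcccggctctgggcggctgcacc
Pcna: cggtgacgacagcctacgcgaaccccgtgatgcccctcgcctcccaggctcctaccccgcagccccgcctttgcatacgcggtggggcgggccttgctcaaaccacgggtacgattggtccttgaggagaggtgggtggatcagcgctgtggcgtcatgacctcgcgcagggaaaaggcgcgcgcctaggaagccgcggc
In Mcm6 and in Mcm5 a 12-base run of capitals holds 2 matches that overlap, 1 on each strand. Tk1 and Pcna, at opposite ends of the 4-OI range, hold none in these stretches. The median 4-OI log2 fold change was -0.74 over the 13 genes with the letters and -0.68 over the 22 without. The CCAAT box letters stood in the windows of 60% of the 35 genes and 43.4% of tested genes, the cell-cycle homology letters TTTGAA or TTCGAA in 17.1% and 16.8%, and the antioxidant-element letters TGACNNNGC in 20.0% and 17.1%, all read on both strands. A match describes letters and is not a bound site.

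Among the 11 licensing genes, 11 fell with 4-OI, 5 with hemin (45.5%) and 8 were lower in Irg1KO cells (72.7%), with medians of -0.66, -0.13 and -0.18. Of all genes, 25.0%, 7.74% and 16.3% were lower in these comparisons, the shares to set beside the counts of this and each further role. The MCM2-7 subunits form a ring of 1 copy each, and their log2 fold changes with 4-OI lay within -0.76 to -0.56. Mcm6, the ring subunit with the highest level per length, was at 233, 221 and 215 CPM with 4-OI, 288, 301 and 281 CPM with hemin, 292, 292 and 291 CPM in Irg1KO cells and 341, 325 and 320.3 CPM in wild-type vehicle. The 4-OI libraries were the lowest, and hemin and Irg1KO libraries lay between them and vehicle with no overlap with either. The log2 fold change of Mcm6 was -0.56 (SE 0.047, adjusted p = 9.03e-13) with 4-OI, -0.18 (SE 0.046, adjusted p = 0.00432) with hemin and -0.17 (SE 0.046, adjusted p = 0.00228) in Irg1KO cells. Mcm3, another subunit of the ring, was at 149, 137 and 132 CPM with 4-OI, 191, 196 and 191 CPM with hemin, 193, 191 and 196 CPM in Irg1KO cells and 209, 222 and 229 CPM in wild-type vehicle. All 3 groups were again below vehicle and 4-OI was lowest, at -0.66, -0.19 and -0.19 on the log2 scale.

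Mcm5 was the only ring subunit with a hemin value above 0, and a difference from the other subunits was not tested. Mcm5 was at 133, 126 and 129 CPM with 4-OI, 229.6, 232 and 218 CPM with hemin, 186, 191 and 184 CPM in Irg1KO cells and 214, 216 and 227 CPM in wild-type vehicle. Its 4-OI libraries were far below all others, its hemin libraries reached and exceeded those of vehicle, and its Irg1KO libraries stayed below vehicle. The log2 fold changes of Mcm5 were -0.76 (SE 0.048, adjusted p = 3.02e-16) with 4-OI, 0.050 (SE 0.046, adjusted p = 0.522) with hemin and -0.23 (SE 0.046, adjusted p = 0.00012) in Irg1KO cells. Cdc6, the ATPase that loads the ring with Cdt1, had similar log2 fold changes, at -0.84 (SE 0.061, adjusted p = 1.52e-14), 0.056 (SE 0.057, adjusted p = 0.569) and -0.29 (SE 0.057, adjusted p = 8.13e-05). Its hemin libraries, at 63.7, 65.1 and 65.1 CPM, all lay above those of vehicle, at 62.2, 61.6 and 63.0 CPM. This held for 1 of the 44 and for 1913 of all 12148 genes tested. Mcm5 and Cdc6 were the 2 genes of the 44 with a hemin value above 0, neither passed the test, and both values turned to just below 0 in a fit on FPKM. Whether hemin and Irg1KO differ for them was not tested.

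Of the other licensing genes, Cdt1, the partner of Cdc6 in loading, fell by the least of the 11 with 4-OI, at -0.49 (SE 0.055, adjusted p = 1.17e-09), and was also lower with hemin (-0.21) and in Irg1KO cells (-0.18). Gmnn encodes geminin, which binds Cdt1 and blocks new loading after origins have fired, and it fell alongside, at -0.68 (SE 0.073, adjusted p = 1.41e-09) with 4-OI, -0.24 with hemin and -0.21 in Irg1KO cells. The FPKM ratio of Cdt1 to Gmnn was 0.587, 0.642 and 0.631 with 4-OI, 0.537, 0.563 and 0.553 with hemin, 0.559, 0.566 and 0.545 in Irg1KO cells and 0.464, 0.585 and 0.609 in vehicle. The 4-OI ratios were above those of hemin and Irg1KO, and all ranges overlapped that of vehicle. The origin-binding subunits Orc1 and Orc6 passed the test with 4-OI, at -0.70 (SE 0.11, adjusted p = 1.87e-06) and -0.57 (SE 0.082, adjusted p = 2.9e-07), and did not pass with hemin or in Irg1KO cells. Mcm2, Mcm4 and Mcm7, the remaining ring subunits, were at -0.64, -0.63 and -0.74 with 4-OI, and of these Mcm7 also passed with hemin (-0.20) and Mcm4 and Mcm7 in Irg1KO cells (-0.13 and -0.21).

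**Figure D2:**
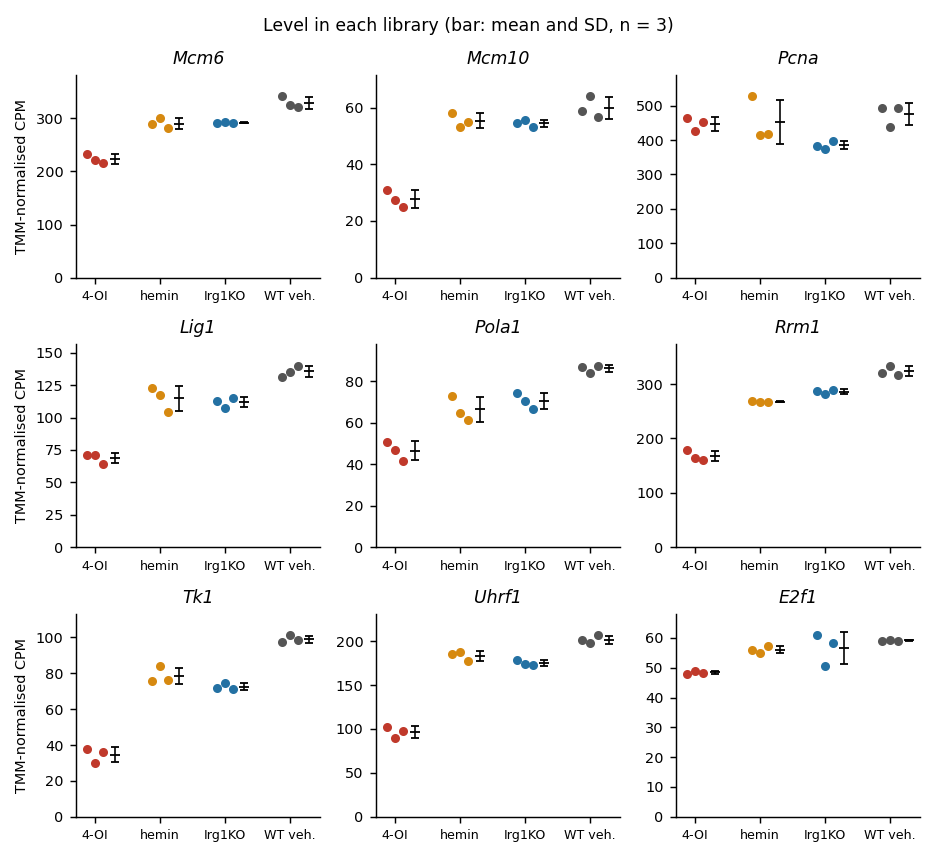
TMM-normalised read counts (CPM, vertical axes from 0) of 9 genes in each library (points), with mean and SD of the 3 libraries beside them; groups run from 4-OI, hemin and Irg1KO to wild-type vehicle. The 4-OI points lie below all other points in every panel except that of Pcna, where 4-OI, hemin and vehicle overlap.

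The 6 genes of helicase activation all fell with 4-OI, with a median of -0.79, where 25.0% of all genes fell. In Irg1KO cells 2 passed (33.3%), where 16.3% of all genes were lower. With hemin none passed in edgeR (2 at an unadjusted p under 0.05) or DESeq2, and 1 passed in limma on FPKM. Mcm10, which binds the helicase and is needed to turn it on, had the third lowest 4-OI value of the 44. Mcm10 was at 30.9, 27.5 and 24.8 CPM with 4-OI, 58.1, 53.0 and 55.0 CPM with hemin, 54.5, 55.6 and 53.1 CPM in Irg1KO cells and 58.7, 63.9 and 56.5 CPM in wild-type vehicle. The 4-OI libraries stood apart below all others, whereas hemin overlapped vehicle and Irg1KO lay just below it. The log2 fold change was -1.10 (SE 0.072, adjusted p = 8.04e-16) with 4-OI, -0.12 (SE 0.066, adjusted p = 0.237) with hemin and -0.14 (SE 0.065, adjusted p = 0.0841) in Irg1KO cells.

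Cdc45, which joins GINS and the MCM ring in the active helicase, was at 30.7, 27.2 and 29.6 CPM with 4-OI, 42.7, 41.2 and 38.1 CPM with hemin, 32.2, 35.4 and 37.2 CPM in Irg1KO cells and 41.8, 39.3 and 41.6 CPM in wild-type vehicle. Its 4-OI libraries were lowest, its Irg1KO libraries lay below vehicle, and hemin and vehicle overlapped. The log2 fold changes of Cdc45 were -0.49 (SE 0.073, adjusted p = 6.17e-07), -0.0086 (SE 0.070, adjusted p = 0.956) and -0.22 (SE 0.070, adjusted p = 0.00937) for 4-OI, hemin and Irg1KO. Gins4, a GINS subunit, was at 25.9, 26.9 and 27.3 CPM with 4-OI, 32.3, 30.7 and 33.4 CPM with hemin, 31.96, 31.1 and 28.3 CPM in Irg1KO cells and 34.3, 34.2 and 31.7 CPM in wild-type vehicle. Its 4-OI libraries were clear of vehicle and its hemin and Irg1KO libraries were not. Its 4-OI log2 fold change was -0.33 (SE 0.074, adjusted p = 0.000277), beside those of its partners Gins1 (-0.92), Gins2 (-0.79) and Gins3 (-0.78). Gins1 was the other gene of this role that was lower in Irg1KO cells, at -0.29 (SE 0.084, adjusted p = 0.0054).

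Levels per transcript length differed between the 4 GINS subunits, which form a complex of 1 copy each. Gins2 was at 20.0 ± 2.03 FPKM with 4-OI, 34.4 ± 0.731 with hemin, 33.7 ± 0.378 in Irg1KO cells and 37.7 ± 3.03 in WT vehicle (SD, n = 3 each). Gins3 was the lowest in all groups, at 2.17 ± 0.227, 3.26 ± 0.355, 3.71 ± 0.270 and 4.06 ± 0.431 FPKM in the same order. The order of the 4 changed with 4-OI, where Gins4 and Gins2 overlapped at the top, while Gins2 was clear of Gins4 in the 3 other groups. In the MCM ring, Mcm6 was highest in every group, at 72.2 ± 2.88 FPKM with 4-OI, 98.9 ± 3.87 with hemin, 102 ± 0.334 in Irg1KO cells and 117 ± 4.43 in vehicle. Mcm4 was the lowest of the ring in every group, at 31.1 ± 1.96, 46.7 ± 1.96, 48.0 ± 2.22 and 53.4 ± 0.501 FPKM, and overlapped Mcm2 in all groups except Irg1KO.

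**Figure D3:**
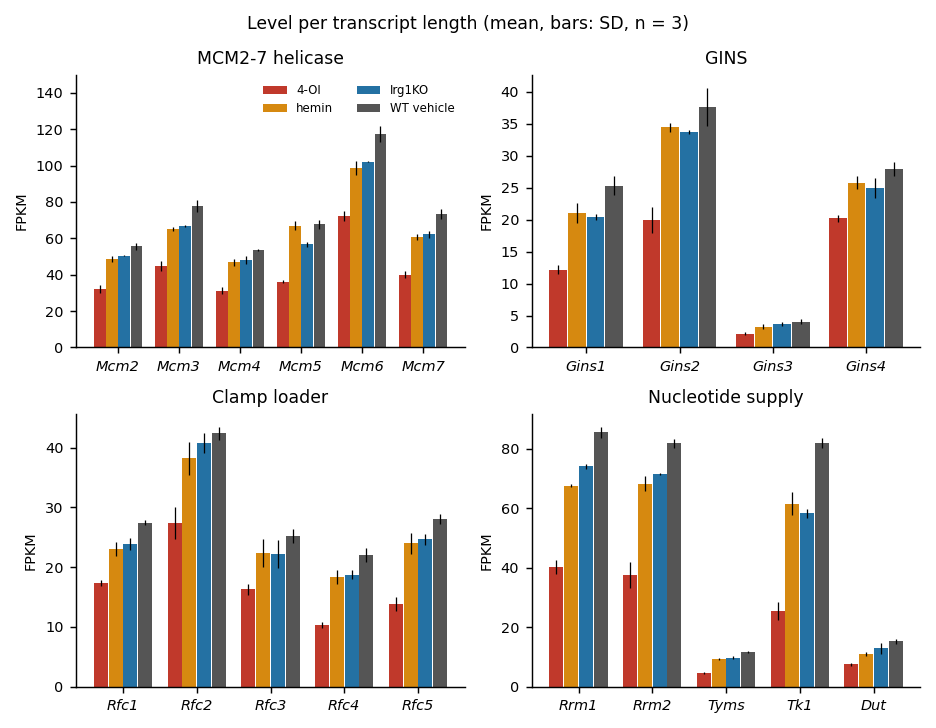
Level per transcript length (FPKM, mean of 3 libraries, bars for the SD) of the subunits of the MCM2-7 ring, GINS and the clamp loader and of the nucleotide-supply enzymes, with bars ordered 4-OI, hemin, Irg1KO and wild-type vehicle. The red 4-OI bar is the lowest of the 4 bars for every gene shown, and each complex changes its order of subunits in at least 1 group. Mcm6 in the ring and Rfc2 in the clamp loader are highest in all 4 groups. By its mean, Rfc5 lies below Rfc1 and Rfc3 with 4-OI and above them in the 3 other groups. In those 3 groups its libraries overlap those of Rfc1, and with hemin and in Irg1KO cells also those of Rfc3. Orders of subunits here are orders of means.

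Of the 10 fork genes, 9 fell with 4-OI, 3 with hemin and 6 were lower in Irg1KO cells, where 25.0%, 7.74% and 16.3% of all genes were lower. Pcna encodes the ring-shaped clamp that tethers polymerases to DNA, and it was the most abundant of the 44 per transcript length, at 434 ± 31.0 FPKM in vehicle. Pcna was at 463, 426 and 451 CPM with 4-OI, 527, 416 and 417 CPM with hemin, 383, 373 and 397 CPM in Irg1KO cells and 493, 439 and 494 CPM in wild-type vehicle. The 4-OI and hemin libraries overlapped those of vehicle, with 1 hemin library above all others, and the Irg1KO libraries were below all others. Its log2 fold change was -0.089 (SE 0.078, adjusted p = 0.367) with 4-OI, -0.069 (SE 0.078, adjusted p = 0.626) with hemin and -0.31 (SE 0.078, adjusted p = 0.00526) in Irg1KO cells. The hemin value depends on the high library, and was -0.19 (adjusted p = 0.013) without it. In limma fits on FPKM, which are scaled to the library total, the 4-OI value of Pcna passed at -0.23 (adjusted p = 0.026 and 0.025 with 1 and 0.1 added). A smaller decrease of Pcna with 4-OI than of its partners was not tested as such.

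The clamp loader, a complex of Rfc1 to Rfc5 that opens Pcna and closes it around DNA, did fall. Rfc4 and Rfc5 were at -0.95 (SE 0.091, adjusted p = 2.98e-11) and -0.88 (SE 0.075, adjusted p = 1.23e-12) with 4-OI, and Rfc1, Rfc3 and Rfc2 at -0.52, -0.49 and -0.48. Within each library, the FPKM ratio of Pcna to Rfc1, the large subunit, was 21.3, 20.9 and 21.7 with 4-OI, 19.0, 16.4 and 16.2 with hemin, 13.8, 14.2 and 15.5 in Irg1KO cells and 16.2, 14.5 and 16.8 in vehicle. The 4-OI ratios were above those of all other libraries, and those of Irg1KO and vehicle overlapped. Rfc1 also fell with hemin (-0.19 (SE 0.050, adjusted p = 0.00645)) and in Irg1KO cells (-0.17 (SE 0.049, adjusted p = 0.00541)), and Rfc4 in Irg1KO cells (-0.22 (SE 0.082, adjusted p = 0.0289)).

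Rpa1, the large subunit of the protein that coats single-stranded DNA, was at 128, 123 and 129 CPM with 4-OI, 176, 183 and 183 CPM with hemin, 156, 152 and 155 CPM in Irg1KO cells and 177, 181 and 193 CPM in wild-type vehicle. Its 4-OI libraries were lowest, its Irg1KO libraries next, and hemin overlapped vehicle. The log2 fold changes of Rpa1 were -0.54 (SE 0.047, adjusted p = 3.11e-12), -0.024 (SE 0.046, adjusted p = 0.794) and -0.25 (SE 0.046, adjusted p = 2.42e-05) for 4-OI, hemin and Irg1KO. Rpa2, its smaller partner, passed with 4-OI, at -0.63 (SE 0.083, adjusted p = 1.81e-07), and not with hemin (-0.11) or in Irg1KO cells (-0.15). Lig1, the ligase that seals Okazaki fragments, was at 70.7, 70.8 and 64.3 CPM with 4-OI, 123, 117 and 104 CPM with hemin, 113, 108 and 115 CPM in Irg1KO cells and 132, 135 and 139.8 CPM in wild-type vehicle. All 3 groups lay below vehicle without overlap, at -0.98 (SE 0.057, adjusted p = 4.51e-17) with 4-OI, -0.24 (SE 0.055, adjusted p = 0.00132) with hemin and -0.28 (SE 0.054, adjusted p = 6.59e-05) in Irg1KO cells. Fen1, the nuclease that trims the flaps Lig1 then seals, moved likewise, at -0.80 (SE 0.060, adjusted p = 4.42e-14), -0.24 (SE 0.058, adjusted p = 0.00282) and -0.25 (SE 0.057, adjusted p = 0.000519).

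The 6 polymerase and primase genes fell with 4-OI (median -0.69), where 25.0% of all genes fell. Only 1 of them (16.7%), Pola1, also passed with hemin and in Irg1KO cells, where 7.74% and 16.3% of all genes were lower. The Irg1KO count is near the share over all genes. The hemin count depended on the tool, with 3 lower at an unadjusted edgeR p under 0.05, 1 in DESeq2 and 4 in limma on FPKM. In Irg1KO cells these counts were 2, 1 and 1. Pola1 encodes the catalytic subunit of polymerase alpha, which extends RNA primers. Pola1 was at 50.9, 47.1 and 41.6 CPM with 4-OI, 72.9, 64.8 and 61.4 CPM with hemin, 74.5, 70.6 and 66.8 CPM in Irg1KO cells and 87.0, 84.1 and 87.4 CPM in wild-type vehicle. The groups lay clear of vehicle in all 3 comparisons, with log2 fold changes of -0.88 (SE 0.067, adjusted p = 8.13e-14), -0.38 (SE 0.064, adjusted p = 2.85e-05) and -0.28 (SE 0.063, adjusted p = 0.000338). Pole, the catalytic subunit of the leading-strand polymerase, was at 44.9, 45.3 and 42.1 CPM with 4-OI, 75.6, 67.1 and 67.6 CPM with hemin, 70.2, 71.6 and 73.0 CPM in Irg1KO cells and 74.6, 79.0 and 80.8 CPM in wild-type vehicle. It was lowest with 4-OI, its Irg1KO libraries were all below vehicle, and hemin overlapped vehicle. Its log2 fold change was -0.82 (SE 0.061, adjusted p = 3.15e-14) with 4-OI, while hemin (-0.16, adjusted p = 0.0527) and Irg1KO (-0.12, adjusted p = 0.0791) missed the threshold.

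Pold1, the catalytic subunit of the lagging-strand polymerase, was at 39.8, 37.4 and 33.8 CPM with 4-OI, 51.6, 55.3 and 50.3 CPM with hemin, 57.9, 54.7 and 50.1 CPM in Irg1KO cells and 59.5, 58.1 and 57.3 CPM in wild-type vehicle. The 4-OI libraries were lowest and passed at -0.65 (SE 0.068, adjusted p = 2.52e-10), the hemin libraries lay below vehicle without passing (-0.15, adjusted p = 0.107), and the Irg1KO and vehicle libraries overlapped. Expected counts of Pold1 were whole in 7 of 12 libraries, so some of its reads were shared with other transcripts. Prim1 and Prim2, which make the RNA primers, and Pola2, the accessory subunit of polymerase alpha, were at -0.73 (SE 0.090, adjusted p = 1.35e-08), -0.57 (SE 0.078, adjusted p = 1.01e-07) and -0.46 (SE 0.075, adjusted p = 2.15e-06) with 4-OI and passed in neither of the other comparisons.

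Nucleotide supply held the 2 lowest 4-OI values, and all 5 of its genes passed as lower in all 3 comparisons in edgeR (4 of 5 in Irg1KO cells in DESeq2, where Dut missed at an adjusted p of 0.054), with medians of -0.98 with 4-OI, -0.28 with hemin and -0.21 in Irg1KO cells. Tk1, thymidine kinase of the salvage route, had the lowest 4-OI value of the 44. Tk1 was at 37.7, 29.7 and 36.3 CPM with 4-OI, 75.6, 84.0 and 76.1 CPM with hemin, 72.0, 74.6 and 71.3 CPM in Irg1KO cells and 97.2, 101 and 98.6 CPM in wild-type vehicle. Its 4-OI libraries were far below the rest, and hemin and Irg1KO libraries lay between them and vehicle. The log2 fold change of Tk1 was -1.53 (SE 0.067, adjusted p = 9.01e-21) with 4-OI, which is 0.347 times the vehicle level, -0.33 (SE 0.061, adjusted p = 0.000105) with hemin and -0.45 (SE 0.061, adjusted p = 1.27e-07) in Irg1KO cells.

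Rrm1 and Rrm2 encode the large and the small subunit of ribonucleotide reductase, which turns ribonucleotides into deoxyribonucleotides. Rrm1 was at 179, 164 and 161 CPM with 4-OI, 269, 267 and 267 CPM with hemin, 287, 282 and 289.7 CPM in Irg1KO cells and 320.3, 334 and 316 CPM in wild-type vehicle. Rrm2 was at 94.97, 75.3 and 80.4 CPM with 4-OI, 149, 143 and 139 CPM with hemin, 147, 147 and 148 CPM in Irg1KO cells and 165, 163 and 167 CPM in wild-type vehicle. For both subunits all 3 groups were below vehicle without overlap and 4-OI was lowest. The log2 fold changes of Rrm1 were -0.94 (SE 0.048, adjusted p = 4.75e-19), -0.27 (SE 0.046, adjusted p = 2.87e-05) and -0.18 (SE 0.046, adjusted p = 0.00191), and those of Rrm2 -0.98 (SE 0.058, adjusted p = 1.23e-16), -0.20 (SE 0.055, adjusted p = 0.00898) and -0.17 (SE 0.055, adjusted p = 0.0143), for 4-OI, hemin and Irg1KO. The FPKM ratio of Rrm1 to Rrm2 stayed near 1, at 1.08 ± 0.079 with 4-OI, 0.993 ± 0.030 with hemin, 1.04 ± 0.010 in Irg1KO cells and 1.05 ± 0.043 in vehicle (SD, n = 3 each).

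Tyms, thymidylate synthase, which makes dTMP anew, was the second lowest with 4-OI, at -1.17 (SE 0.075, adjusted p = 5.91e-16), and was at -0.28 (SE 0.069, adjusted p = 0.00306) with hemin and -0.25 (SE 0.067, adjusted p = 0.00321) in Irg1KO cells. None of its 12 expected counts was whole within 0.005, so reads of Tyms were shared with other transcripts and its level is uncertain. Dut, the dUTPase that keeps uracil out of DNA, had the lowest hemin value of the 44, at -0.41 (SE 0.085, adjusted p = 0.000467), beside -0.88 (SE 0.088, adjusted p = 1.16e-10) with 4-OI and -0.21 (SE 0.081, adjusted p = 0.0398) in Irg1KO cells, where its libraries overlapped those of vehicle.

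The 3 chromatin assembly genes fell with 4-OI, and 2 of them also with hemin and in Irg1KO cells, where 25.0%, 7.74% and 16.3% of all genes were lower. Uhrf1, which recognises hemimethylated DNA behind the fork and brings in the maintenance methyltransferase, was at 102, 89.8 and 97.3 CPM with 4-OI, 185, 187 and 177 CPM with hemin, 179, 174 and 172 CPM in Irg1KO cells and 201, 197 and 207 CPM in wild-type vehicle. All groups were below vehicle, and 4-OI was far below the others, at -1.06 (SE 0.050, adjusted p = 8.25e-20) with 4-OI, -0.14 (SE 0.048, adjusted p = 0.0422) with hemin and -0.20 (SE 0.048, adjusted p = 0.000691) in Irg1KO cells. Expected counts of Uhrf1 were whole in 4 of 12 libraries.

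Chaf1a, the large subunit of the CAF-1 histone chaperone, was at 52.0, 47.6 and 48.6 CPM with 4-OI, 73.8, 72.0 and 69.6 CPM with hemin, 70.8, 73.2 and 74.4 CPM in Irg1KO cells and 81.3, 82.9 and 78.7 CPM in wild-type vehicle. Its groups lay below vehicle in all 3 comparisons, at -0.71 (SE 0.057, adjusted p = 2.51e-13), -0.18 (SE 0.055, adjusted p = 0.0202) and -0.16 (SE 0.054, adjusted p = 0.019). Chaf1b, its middle subunit, was at 24.8, 26.6 and 24.9 CPM with 4-OI, 35.0, 34.5 and 37.2 CPM with hemin, 36.7, 33.8 and 33.9 CPM in Irg1KO cells and 36.7, 33.5 and 38.7 CPM in wild-type vehicle. The 4-OI libraries of Chaf1b were clear of vehicle, at -0.50 (SE 0.075, adjusted p = 6e-07), and those of hemin (-0.017) and Irg1KO (-0.052) overlapped it.

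The 3 genes of G1/S control all fell with 4-OI, with a median of -0.46, where 25.0% of all genes fell. Ccne2, an E-type cyclin gene whose product activates Cdk2, was at 50.6, 45.6 and 47.7 CPM with 4-OI, 77.4, 64.5 and 59.1 CPM with hemin, 58.8, 63.8 and 60.7 CPM in Irg1KO cells and 86.4, 72.9 and 81.0 CPM in wild-type vehicle. It was lowest with 4-OI, its Irg1KO libraries were below vehicle, and 1 hemin library reached the vehicle range. Its log2 fold changes were -0.74 (SE 0.079, adjusted p = 1.64e-08) with 4-OI, -0.26 (SE 0.076, adjusted p = 0.0172) with hemin and -0.38 (SE 0.076, adjusted p = 0.000188) in Irg1KO cells. Ccne1, the other E-type cyclin, was at 24.7, 27.4 and 24.0 CPM with 4-OI, 32.8, 35.4 and 31.7 CPM with hemin, 31.96, 32.2 and 30.6 CPM in Irg1KO cells and 35.1, 34.4 and 36.3 CPM in wild-type vehicle. The 4-OI libraries were lowest, at -0.46 (SE 0.074, adjusted p = 1.92e-06), and hemin (-0.078) and Irg1KO (-0.15) did not pass.

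E2f1, a transcription factor whose known targets include many of these genes, had the smallest 4-OI decrease among the 43 that passed. E2f1 was at 48.0, 48.9 and 48.4 CPM with 4-OI, 55.9, 54.9 and 57.2 CPM with hemin, 60.9, 50.5 and 58.3 CPM in Irg1KO cells and 59.0, 59.5 and 59.1 CPM in wild-type vehicle. Its 4-OI libraries were below all others, its hemin libraries were just below vehicle, and the Irg1KO libraries spread on both sides of vehicle. The log2 fold change was -0.29 (SE 0.064, adjusted p = 0.000244) with 4-OI, -0.080 (SE 0.063, adjusted p = 0.444) with hemin and -0.071 (SE 0.062, adjusted p = 0.385) in Irg1KO cells. None of the 12 expected counts of E2f1 was whole, so part of its reads was divided between transcripts and its level is uncertain.

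By the pattern of calls against vehicle, 17 of the 44 were lower in all 3 comparisons, 7 with 4-OI and in Irg1KO cells (Cdc6, Mcm4, Mcm5, Cdc45, Gins1, Rfc4 and Rpa1), 19 with 4-OI alone and 1, Pcna, in Irg1KO cells alone. The 17 were Cdt1, Gmnn, Mcm3, Mcm6, Mcm7, Rfc1, Fen1, Lig1, Pola1, Rrm1, Rrm2, Tyms, Tk1, Dut, Uhrf1, Chaf1a and Ccne2. Some hemin calls were near the threshold: that of Uhrf1 was lost in 6 of 6 fits without 1 library (-0.16 to -0.11), those of Ccne2 and Chaf1a in 4 of 6 (-0.25 to -0.18 and -0.18 to -0.16), that of Gmnn in 2 (without hemin replicate 2 or WT vehicle replicate 1, -0.22 and -0.13), and those of Cdt1 (without WT vehicle replicate 2, -0.16) and Rrm2 (without hemin replicate 3, -0.18) in 1. In Irg1KO cells the calls of Dut and Mcm4 were lost in 4 of 6 such fits (-0.23 to -0.12 and -0.14 to -0.090), that of Rfc4 in 3 (-0.23 to -0.18), that of Chaf1a in 2 (-0.14 in both), and those of Cdc45 (without Irg1KO replicate 1, -0.17), Cdt1 (without WT vehicle replicate 2, -0.13) and Gmnn (without WT vehicle replicate 1, -0.11) in 1. A missed threshold with hemin does not show that the 4-OI and hemin effects differ, and this was tested directly. Set against hemin, 4-OI libraries were lower for 43 of the 44, with a median of -0.51, where 21.7% of all genes were lower and 20.6% higher. Pcna was the exception at -0.020 (SE 0.078, adjusted p = 0.865). Tk1 (-1.20), Mcm10 (-0.98), Uhrf1 (-0.93) and Cdc6 (-0.90) were lowest in 4-OI relative to hemin. The call of Gins3, at -0.50 (SE 0.15, adjusted p = 0.00588), was lost without hemin replicate 2 (-0.41). These groups differ in hours as well as in agent.

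Against Irg1KO, 4-OI libraries were lower for 43 of the 44 and higher for Pcna, with a median of -0.53, where 34.2% of all genes were lower and 23.5% higher. Tk1 was at -1.08 (SE 0.069, adjusted p = 3.98e-16) and Mcm10 at -0.96 (SE 0.073, adjusted p = 4.35e-14). Pcna was at 0.22 (SE 0.078, adjusted p = 0.0278), and this call was lost in both FPKM fits and in 4 of the 6 fits that left out a library, where its adjusted p was 0.062 to 0.098. The call of Gins4, at -0.19 (SE 0.075, adjusted p = 0.0283), was also lost in 4 of those 6 fits (-0.20 to -0.15), and that of E2f1 without Irg1KO replicate 1 (-0.16). Agent, genotype and hours differ together in this comparison. Across the 44 genes, the log2 fold change was nearly unrelated to the level per length in vehicle, with Pearson r = 0.121 for 4-OI and 0.020 for hemin, and r = -0.309 for Irg1KO, given as descriptions over genes that share all libraries.

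Further genes of the same pathways came from 5 lists. Of all genes, 25.0% fell and 25.4% rose with 4-OI, 7.74% and 9.48% with hemin, and 16.3% were lower and 23.5% higher in Irg1KO cells. The counts of each list are to be read against these shares. Of 34 other replication factors, 26 fell (76.5%) and 1 rose (2.9%) with 4-OI (median -0.45), 6 fell with hemin (17.6%) and 12 were lower in Irg1KO cells (35.3%). The most abundant were the topoisomerase Top1, at -0.13 (SE 0.048, adjusted p = 0.0185), the checkpoint scaffold Topbp1, at -0.50 (SE 0.050, adjusted p = 9.97e-11), the MCM-binding protein Mcmbp, at -0.19 (SE 0.049, adjusted p = 0.00157), and the polymerase delta subunit Pold3, at -0.41 (SE 0.059, adjusted p = 3.51e-07). Pold4, the smallest subunit of polymerase delta, was the 1 that rose, at 25.3 ± 0.631 CPM with 4-OI and 14.3 ± 3.12 CPM in WT vehicle (SD, n = 3 each), or 0.85 (SE 0.11, adjusted p = 4.53e-08).

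Of 35 tested enzymes from other steps of nucleotide metabolism, 13 fell and 5 rose with 4-OI, with a median of -0.096. These are 37.1% lower and 14.3% higher, where 25.0% and 25.4% of all genes were. The most abundant were the dNTP hydrolase Samhd1 (-0.13 (SE 0.049, adjusted p = 0.0203)), the purine salvage enzyme Hprt (0.11 (SE 0.13, adjusted p = 0.518)), the UMP/CMP kinase Cmpk1 (-0.016 (SE 0.050, adjusted p = 0.816)) and the purine synthesis enzyme Paics (-0.17 (SE 0.047, adjusted p = 0.00259)). Those that rose were Adss (0.66 (SE 0.053, adjusted p = 4.14e-13)) and Atic (0.23 (SE 0.055, adjusted p = 0.000677)) of purine synthesis, Aprt of purine salvage (0.40 (SE 0.072, adjusted p = 0.000129)), and Uck2 (0.58 (SE 0.077, adjusted p = 6.82e-08)) and Ctps2 (0.55 (SE 0.054, adjusted p = 4.68e-11)) of pyrimidine metabolism. With hemin 3 fell and 3 rose (8.6% each), near the shares of 7.74% and 9.48% over all genes, and those that rose were Adss (0.44), Uck2 (0.24) and Atic (0.23). In Irg1KO cells 6 were lower (17.1%) and 7 higher (20.0%), near the 16.3% and 23.5% over all genes, and Uck2 (0.51) was again among the higher ones.

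Of 30 G1/S regulators, 19 fell (63.3%) and 5 rose (16.7%) with 4-OI, where 25.0% of all genes fell and 25.4% rose. The median of the 30 was -0.36, and the share that rose was below that over all genes. Ccnd1, the cyclin D1 gene, was at 406 ± 23.6 CPM with 4-OI, 849 ± 38.6 with hemin, 767 ± 29.3 in Irg1KO cells and 1000.3 ± 47.6 in vehicle (SD, n = 3 each), with a 4-OI log2 fold change of -1.30 (SE 0.051, adjusted p = 4.09e-22). The Cdk inhibitor Cdkn1a was at -0.24 (SE 0.051, adjusted p = 0.000124), the E2F partner Tfdp1 at -0.44 (SE 0.055, adjusted p = 1.51e-08) and the pocket protein Rbl1 at -0.62 (SE 0.050, adjusted p = 3.88e-13). Those that rose were the growth regulator Myc (0.36 (SE 0.055, adjusted p = 7.87e-07)), the E2F factors E2f4 (0.42 (SE 0.055, adjusted p = 3.54e-08)), E2f3 (0.27 (SE 0.062, adjusted p = 0.000504)) and E2f6 (0.15 (SE 0.062, adjusted p = 0.0391)), and the cyclin gene Ccnd2 (0.22 (SE 0.074, adjusted p = 0.012)). Myc and E2f4 also rose with hemin, at 0.41 and 0.32 (6.7% of the list, against 9.48% of all genes), where 6 fell (20.0%, against 7.74%). In Irg1KO cells 15 were lower and 3 higher, namely Ccnd2 (1.84), Cdk4 (0.16) and Cdkn1c (1.01). Stromal markers were also high in the Irg1KO libraries, and the part of stromal cells in the values of these regulators was not tested.

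Replication-linked chromatin genes fell for 12 of 13 with 4-OI (92.3%, median -0.39), 3 with hemin (23.1%) and 6 in Irg1KO cells (46.2%), where 25.0%, 7.74% and 16.3% of all genes were lower. The maintenance methyltransferase Dnmt1 (-0.38 (SE 0.048, adjusted p = 1.78e-08)), the histone variant H2az1 (-0.54 (SE 0.050, adjusted p = 8.55e-12)) and the chaperone subunits Rbbp4 (-0.35 (SE 0.053, adjusted p = 7.88e-07)) and Ssrp1 (-0.39 (SE 0.048, adjusted p = 1.56e-08)) were the most abundant, and the histone chaperone Asf1a was the 1 that rose (0.26 (SE 0.11, adjusted p = 0.0415)). Of 18 genes of the replication checkpoint and repair, 15 fell (83.3%) and 1 rose (5.6%) with 4-OI (median -0.69), 5 fell with hemin (27.8%) and 8 were lower in Irg1KO cells (44.4%). The mismatch repair gene Msh6 (-0.18 (SE 0.062, adjusted p = 0.0129)), Brca1 (-0.60 (SE 0.064, adjusted p = 4.68e-10)) and Rad54l (-0.93 (SE 0.070, adjusted p = 5.18e-14)) of recombination and the checkpoint kinase Atr (-0.43 (SE 0.068, adjusted p = 1.61e-06)) were the most abundant, and Rad17, a checkpoint clamp loader, was the 1 that rose (0.17 (SE 0.064, adjusted p = 0.0261)).

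**Figure D4:**
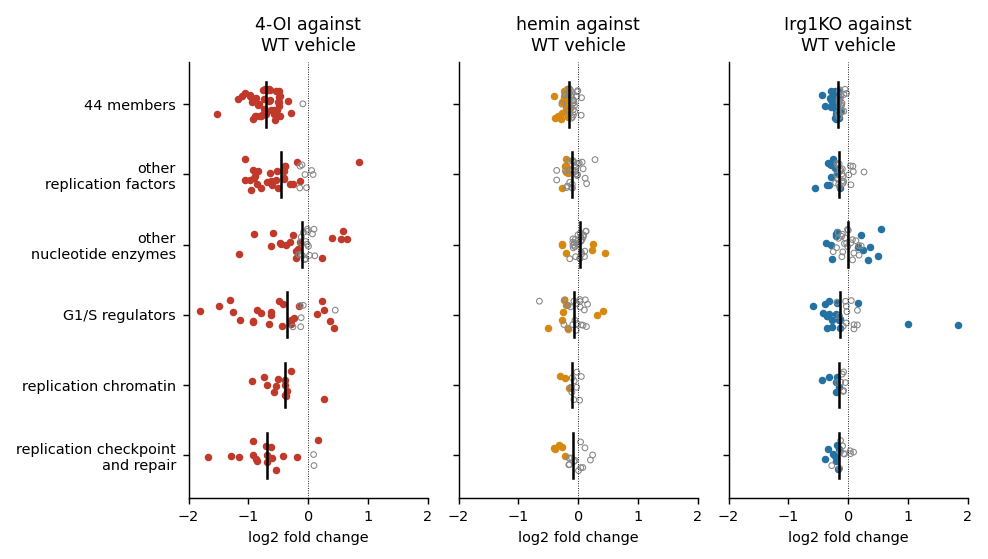
Log2 fold change against wild-type vehicle of the 44 genes and of 5 lists of related genes (rows), 1 panel each for 4-OI, hemin and Irg1KO; filled points passed an adjusted p of 0.05, open points did not, and black bars mark medians. With 4-OI the medians run from -0.71 for the 44 genes to -0.096 for the other nucleotide enzymes.

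Several of the 44 share a start region with a neighbour on the other strand. In the RefSeq table of build GRCm38.p6, 6 had a divergent neighbour whose start lay within 1000 bases, and 5 of these neighbours were tested. Of the 5, 2 fell and 1 rose with 4-OI, where 25.0% of all genes fell and 25.4% rose, and 5 genes are too few to tell apart from these shares. Their median was -0.23, against -0.70 for their 5 partners among the 44. Cdc45 (-0.49) stands beside Ufd1, which rose at 0.22 (adjusted p = 0.00419). Mcm7 (-0.74) stands beside Ap4m1, at 0.010 (adjusted p = 0.941). Lig1 (-0.98) stands beside Zswim9, at -0.23 (adjusted p = 0.346). The neighbours that fell were Prpf38a beside Orc1, at -0.40 (adjusted p = 2.98e-05), and Smyd4 beside Rpa1, at -0.37 (adjusted p = 0.0345).

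The 4-OI count of the 44 was 43 or 44 in every alternative setting tried, while the split over all genes differed between the count fits and the FPKM fits. In edgeR with TMM factors, 3043 genes fell and 3083 rose with 4-OI. In limma on FPKM with 1 added, 4608 fell and 1743 rose, and the median log2 fold change of all genes was -0.11, against -0.0031 in edgeR. The median of the 44 was -0.79 in that fit. For hemin, edgeR called 940 genes lower and 1152 higher, and limma on FPKM 1422 and 621. The FPKM fits change the tool, the unit and the scaling together. With only the scaling factors changed, edgeR called 2934 lower and 3222 higher with 4-OI (RLE) or 3412 and 2739 (upper quartile).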

How the data were processed

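RNA was sequenced in 12 mouse macrophage libraries, 4 groups of 3, grouped by the labels. Each library has 1 deposited table with an expected count, an FPKM and a transcript length per gene. HISAT2, StringTie, Bowtie2 and RSEM with builds GRCm39 and mm39 are named in the submitters' processing notes, and their versions and roles are not given in the sources used here. Per the file headers, the first unit is the authors' expected count, an estimate of reads per gene that need not be whole. The second unit, per the file headers, is FPKM, which the authors scaled by length and library total. The deposited length, which differs between libraries for the same gene, is printed only for Acod1.

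Expected counts were rounded to whole numbers. Genes passed filterByExpr (12148 left), were scaled with TMM factors (0.944 to 1.05) and tested with the edgeR 4.0.16 quasi-likelihood F test (robust, R 4.3.3) in 1 fit over the 12 libraries, with Benjamini-Hochberg adjustment over all genes tested and a threshold of 0.05. The TMM factors differed by group, at 0.9444 to 0.9495 for 4-OI, 0.9926 to 1.0029 for hemin, 1.0122 to 1.0208 for Irg1KO and 1.0333 to 1.0499 for WT vehicle. The SE is the absolute log2 fold change over the square root of F. A gene missing from a file counted as 0. CPM are TMM-normalised. The biological coefficient of variation was 4.71%. The fits were tested on simulated data. The alternatives were RLE and upper-quartile factors, DESeq2 1.42.0, limma 3.58.1 on log2(FPKM + 1) and log2(FPKM + 0.1), no filter, at least 10 counts in 6 libraries, the 2 compared groups only, a replicate block, leaving out each library and, chosen after seeing the data, leaving out genes at least 2-fold higher in Irg1KO.

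Values in every library are given for the 3 members of each role with the highest mean CPM and for any member not lower with 4-OI or higher in a comparison with vehicle. Of each further list, up to 4 members by mean CPM and those called against the list's median are named, and other genes were chosen after their values were seen. The members and lists were chosen with earlier results of these data known. Shmt2 was not matched to the files, and H2afz was matched as H2az1. Promoters and neighbours come from RefSeq in build GRCm38.p6, which is not the build named in the notes.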

Additional observations from a re-analysis of the deposited data

How the results depend on the processing

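The number of the 44 genes lower with 4-OI was 43 or 44 in every alternative, 44 in the FPKM fits. With hemin it was 13 to 25 against 17 (13 to 21 when 1 library was left out, highest without hemin replicate 1), and in Irg1KO cells 20 to 30 against 25 (21 to 25 when 1 library was left out). The number of genes higher with 4-OI than in Irg1KO, which is Pcna alone, was 0 in both FPKM fits and 0 to 1 when 1 library was left out. Over all genes, limma on log2(FPKM + 1) called 4608 lower and 1743 higher with 4-OI, log2(FPKM + 0.1) 4640 and 1762. For hemin they called 1422 lower and 621 higher, and 624 higher. For 4-OI against Irg1KO they called 1767 and 1762 higher. Lower calls made up 49.7% of all calls with 4-OI by edgeR and 72.6% by limma on log2(FPKM + 1), and with hemin 44.9% and 69.6%. The fit without genes at least 2-fold higher in Irg1KO called 1702 genes higher in Irg1KO against 2850. The causes were not tested.

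Values near 0 changed sign. With hemin Cdc6 was at -0.010 and -0.011 and Mcm5 at -0.015 in both FPKM fits. Pcna in 4-OI against hemin was at 0.002 with RLE factors and 0.001 in DESeq2. Rfc2 in Irg1KO was at 0.004 without the genes at least 2-fold higher there. When 1 library was left out, Pcna in 4-OI against hemin ran from -0.078 to 0.098 and E2f1 in Irg1KO from -0.13 to 0.006. With hemin such fits gave -0.039 to 0.039 for Cdc45, -0.076 to 0.029 for Chaf1b, -0.118 to 0.001 for Gins2, -0.047 to 0.013 for Rpa1, -0.098 to 0.029 for Orc1 and -0.138 to 0.008 for Pola2. No value above 0 among these passed the test.

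With a replicate block, 43, 17 and 25 of the 44 genes were lower with 4-OI, with hemin and in Irg1KO cells, the numbers found without it. Deviations of same-numbered libraries from their group means correlated at -0.079 to 0.067 over 18 pairs. Between differently numbered libraries, 4-OI replicate 2 and WT vehicle replicate 3 correlated at 0.12. With 3 libraries a group these values cannot exclude that some libraries share an animal or a culture day. With 3 libraries a group no test for a library far from the others was run, and precision is limited by that number.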
